A study of Saccharomyces cerevisiae with 22 samples.

Results

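The comparison described here set RNA of the vacuole fraction against RNA of the total cell lysate in *rny1*Δ yeast treated with 0.2 µM rapamycin for 3 h. Its members were chosen by their sample titles and amount to 4 of the 22 libraries of the series, 2 of the vacuole fraction and 2 of total lysate. The cells are *Saccharomyces cerevisiae*, grown in rich YPD medium. The labels name the strain X2180-1a, whereas the study's strain list gives its *rny1*Δ and *rny1*Δ *atg2*Δ strains in X2180-1B. They carry *rny1*Δ::natNT2, a deletion of the gene for the vacuolar ribonuclease Rny1. The pairs set beside them were growing *rny1*Δ cells, with 1 vacuole and 1 total library, and rapamycin-treated *rny1*Δ *atg2*Δ cells, which also lack autophagy, with 2 of each. All vacuole libraries of the series come from cells labelled *rny1*Δ, so the vacuole of cells with Rny1 was not measured. mRNA levels and ribosome footprints in WT cells at 3 h of rapamycin, from 1 library of each kind, were read beside them. Their baseline was growing WT cells, with 2 libraries of each kind, and WT cells at 1 h and 2 h of rapamycin served as alternatives. The fit of all 12 vacuole and lysate libraries also held growing *rny1*Δ *atg2*Δ cells, with 1 library per fraction.

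The vacuole is the lytic compartment of yeast. Rapamycin inhibits the kinase complex TORC1 and so induces autophagy, in which a double membrane encloses a portion of cytoplasm and delivers it to the vacuole. Rny1 is an RNase of the T2 family that digests RNA there, and Atg2 is a lipid transfer protein needed to form the membrane. Cytoplasmic mRNAs that reach the vacuole are normally degraded, and the deletion of *RNY1* was used in the study to let them accumulate. The question put to these 4 libraries was which mRNAs made up a larger or smaller part of the RNA in the vacuole fraction than of the RNA in the lysate. The lysate holds the vacuoles too, and every library is expressed relative to its total, so that a vacuole/total ratio compares the makeup of the fractions and not the amount of an mRNA delivered. For the same reason fewer delivered copies and more copies of other RNAs cannot be told apart.

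The vacuole libraries had 10868832 and 13097522 counts on genes, and the total lysates had 10349295 and 9156333. At this depth 3 counts corresponded to between 0.229 and 0.328 CPM (counts scaled to a common library size of 1e6). The replicates of a fraction differed by more than sampling noise. The log2 difference between replicates had an SD across mRNAs of 0.172 in the vacuole fraction and 0.253 in total lysates, so the lysates were the less reproducible side of the ratio. *ATG2* had 1101 and 1353 counts in the vacuole libraries and 1314 and 1448 in total lysates, and between 0 and 79 where the label was *rny1*Δ *atg2*Δ. *RNY1* had 416 and 418 counts in the vacuole libraries and 256 and 327 in total lysates of cells labelled *rny1*Δ. Where along *RNY1* these reads fell is not held in gene-level counts, so the deletion could not be checked and the libraries are named by their labels. mRNAs specific to mating type were read because the labels and the strain list name different backgrounds. The 4 MATα-specific mRNAs examined took 0.277% and 0.283% of the counts in the vacuole libraries and 0.233% and 0.211% in total lysates. The 5 MATa-specific mRNAs took 0.00726% and 0.00730% in the vacuole libraries and 0.00591% and 0.00648% in total lysates, and none of the 9 was at 0 in these 4 libraries.

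A total of 5701 protein-coding mRNAs whose counts over the 4 libraries summed to at least 10 were tested by edgeR's quasi-likelihood test. An mRNA was called at a log2 ratio of at least 1 in size with an adjusted p under 0.01, where p-values were adjusted by the Benjamini-Hochberg method over all mRNAs tested. Of these mRNAs, 606 (10.6%) were called higher in the vacuole fraction and 437 (7.67%) lower, and 4658 were not called. The median log2 ratio of all mRNAs was 0.02, with quartiles of −0.47 and 0.55. Of the 437 mRNAs called lower, 19 are encoded by the mitochondrial genome and 418 by the nuclear genome. The mRNAs called higher took 13.2% and 12.3% of the counts in the vacuole libraries and 4.82% and 3.97% in total lysates. Those called lower took 9.58% and 11.1% in the vacuole libraries and 25.9% and 29.99% in total lysates. The 95% Wilson interval of any such share spans at most 0.0297 percentage points on either side, and it covers counting error only. Without each library in turn, between 582 and 666 mRNAs were called higher and between 370 and 535 lower. A correction for coding length left 318 called higher and 465 lower, and it is described with the length of the mRNAs. The study describes the sequencing replicates as independent biological ones. The p-values rest on the spread between these libraries, with the estimate of each mRNA moderated by that of all mRNAs.

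**Figure D1:**
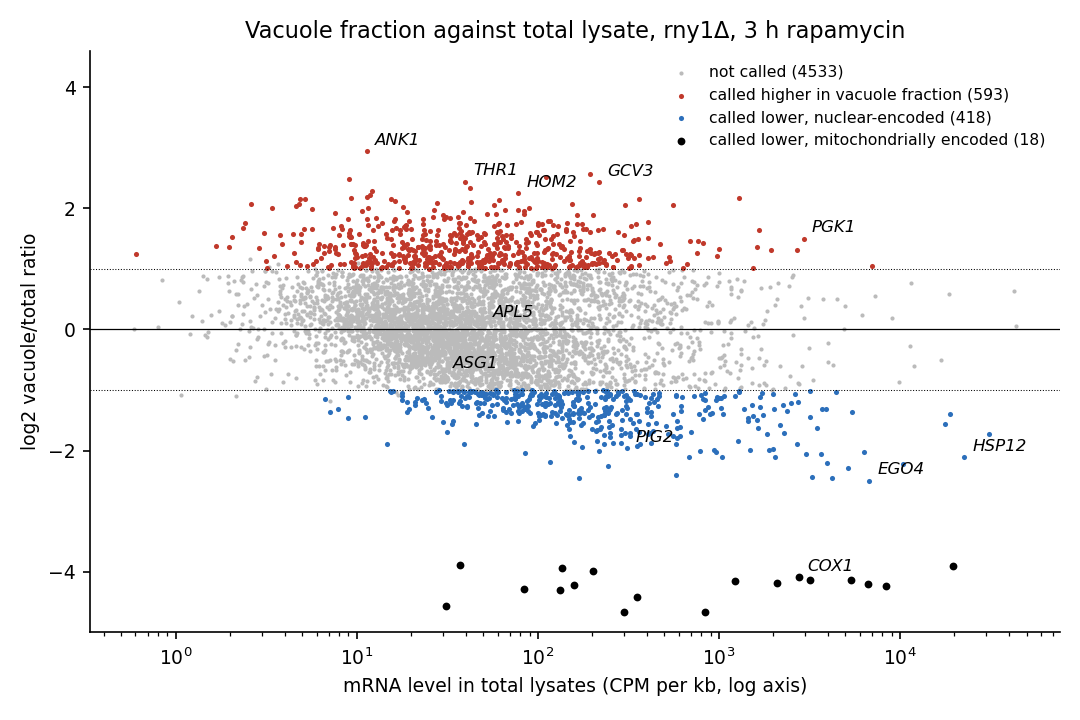
Log2 vacuole/total ratio of each mRNA (y axis) against its mean level in total lysates in CPM per kb of coding sequence (x axis, log scale), for the 5562 mRNAs with at least 10 counts in each of the 4 libraries. Dotted lines mark a log2 ratio of 1 in size. The 593 mRNAs called higher lie along the whole range of levels, the 418 nuclear-encoded mRNAs called lower lie mostly to the right, and the 18 mitochondrially encoded mRNAs plotted form a separate group at or below −3.88.

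The study examined 8 mRNAs one by one, and as it chose them on these samples their direction is a description. *HOM2* (YDR158W, chromosome IV, 770357 to 771454 in the R64 annotation), which encodes aspartate-semialdehyde dehydrogenase, had 411 and 386 CPM in the vacuole libraries, against 86.1 and 80.8 CPM in total lysates. Its log2 ratio was 2.26 ± 0.10 (SE; adjusted p = 7.9e-08). *LYS1* (YIR034C, chromosome IX, 419615 to 420736), for saccharopine dehydrogenase, the last step of lysine synthesis, had 199 and 200.3 CPM in the vacuole libraries, against 70.1 and 60.03 CPM in total lysates (log2 ratio 1.61 ± 0.11). In both cases each vacuole library lay above each lysate. *HIS5* (YIL116W, chromosome IX, 142928 to 144085), for histidinol-phosphate aminotransferase, had 341 and 339 CPM in the vacuole libraries, against 120.4 and 102 CPM in total lysates (log2 ratio 1.61 ± 0.11). *ARO2* (YGL148W, chromosome VII, 226399 to 227529), for chorismate synthase, had 368 and 350.3 CPM in the vacuole libraries, against 104 and 80.2 CPM in total lysates (log2 ratio 1.96 ± 0.13). For all 4 of these biosynthetic mRNAs the vacuole libraries lay above the lysates, as they did for 43.3% of all mRNAs tested. *PIG2* (YIL045W, chromosome IX, 271161 to 272777), which encodes a putative targeting subunit of the protein phosphatase that acts on glycogen synthase, was the opposite case, with 117 and 136 CPM in the vacuole libraries, against 456 and 529 CPM in total lysates (log2 ratio −1.96 ± 0.12). *NTH2* (YBR001C, chromosome II, 238941 to 241283), for a neutral trehalase, had 118 and 139.7 CPM in the vacuole libraries, against 309 and 378 CPM in total lysates (log2 ratio −1.41 ± 0.13). The vacuole libraries lay below the lysates for either mRNA, as they did for 41% of all mRNAs tested. The other two did not pass. *APL5* (YPL195W, chromosome XVI, 176223 to 179021), for a subunit of the AP-3 adaptor, had 162 and 140.4 CPM in the vacuole libraries, against 135 and 147 CPM in total lysates, with overlapping groups and a log2 ratio of 0.10 ± 0.11 (adjusted p = 0.41). *ASG1* (YIL130W, chromosome IX, 102782 to 105676), for a zinc cluster protein, had 51.9 and 53.0 CPM in the vacuole libraries, against 88.2 and 87.3 CPM in total lysates, and its log2 ratio of −0.74 ± 0.094 (adjusted p = 2.4e-05) lay short of 1 in size.

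**Figure D2:**
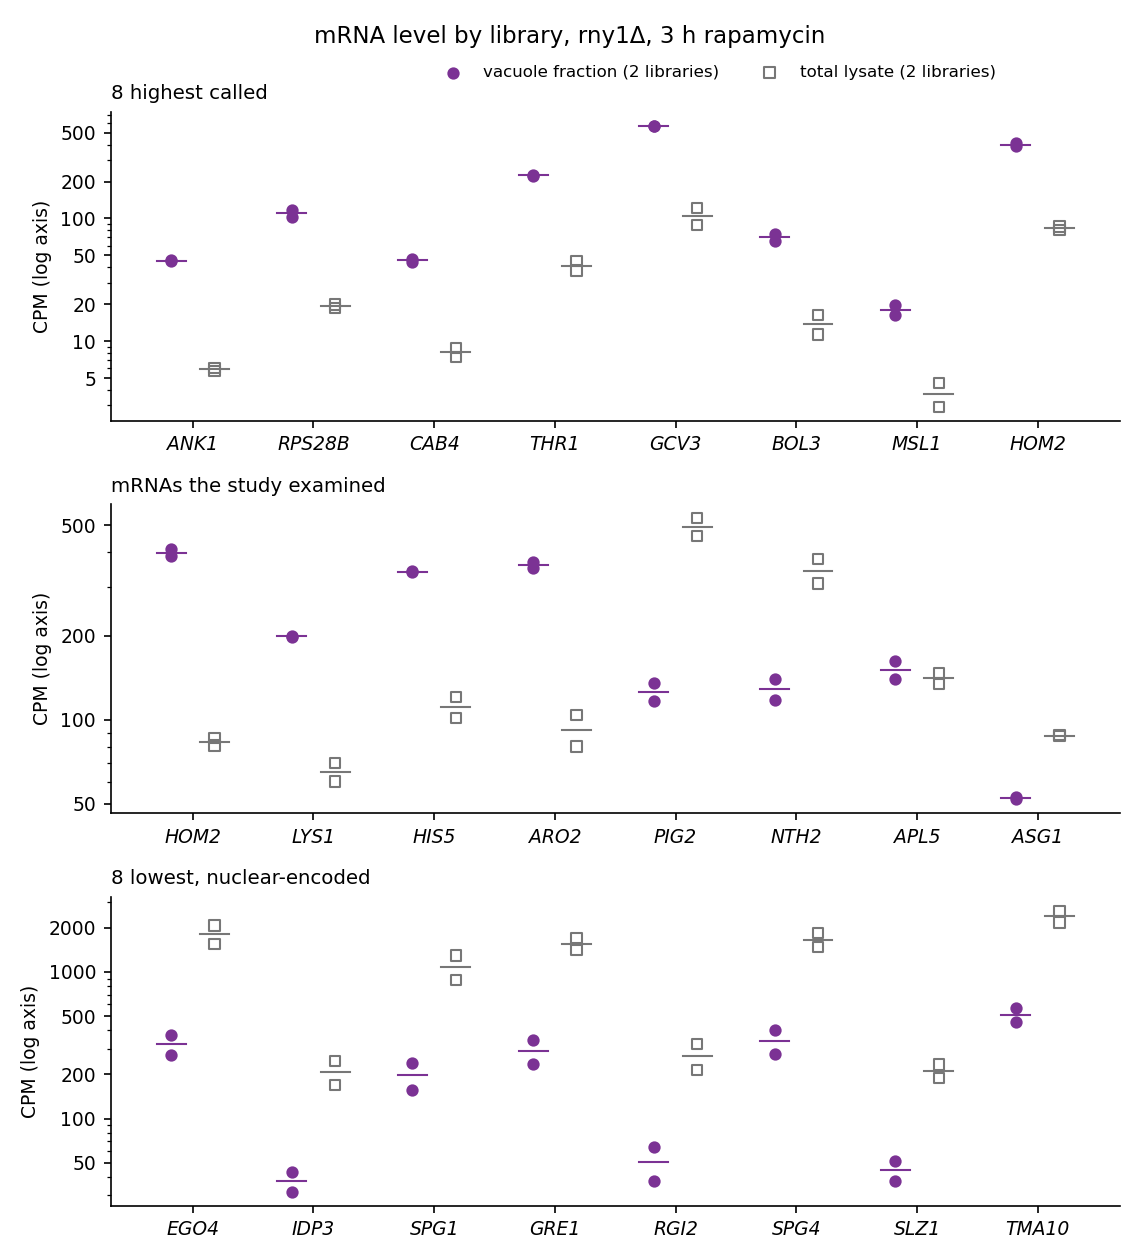
Levels of named mRNAs in CPM (y axis, log scale) in the 2 vacuole libraries (filled circles, left of each name) and the 2 total lysates (open squares, right), with a line at the mean of each fraction. For the 8 highest mRNAs the vacuole libraries lie above the lysates, for the 8 lowest nuclear-encoded mRNAs they lie below, and among the 8 mRNAs the study examined the fractions overlap for *APL5*. Of all mRNAs tested, the vacuole libraries lie above the lysates for 43.3% and below for 41%.

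The 8 mRNAs with the highest called ratios, among genes with a symbol and at least 10 counts in each library, encode a mixture of functions. *ANK1* (YGL242C, chromosome VII, 44652 to 45197), for a protein with ankyrin repeats, led with 44.8 and 45.6 CPM in the vacuole libraries and 5.72 and 6.04 CPM in total lysates (log2 ratio 2.94 ± 0.14, adjusted p = 8.1e-08). *RPS28B* (YLR264W, chromosome XII, 673131 to 673334), for a protein of the small ribosomal subunit, followed with 117 and 104 CPM in the vacuole libraries, against 18.7 and 19.9 CPM in total lysates (log2 ratio 2.51 ± 0.11). Its near-identical copy *RPS28A* had a log2 ratio of 1.60, and reads that fit both copies were not counted, so their levels are uncertain. The replicates of each fraction lay far closer to each other than to the other fraction. *CAB4* (YGR277C, chromosome VII, 1045644 to 1046561), for an enzyme of coenzyme A synthesis, had 46.8 and 44.5 CPM in the vacuole libraries and 8.75 and 7.42 CPM in total lysates (log2 ratio 2.49). *THR1* (YHR025W, chromosome VIII, 159438 to 160511), for homoserine kinase, had 223 and 226 CPM in the vacuole libraries, against 44.8 and 37.6 CPM in total lysates (log2 ratio 2.44). The H protein of the glycine cleavage system, *GCV3* (YAL044C, chromosome I, 57950 to 58462), had 569 and 562 CPM in the vacuole libraries and 121 and 89.0 CPM in total lysates (log2 ratio 2.43). *BOL3* (YAL046C, chromosome I, 57029 to 57385), which acts in mitochondrial iron-sulfur cluster assembly, had a log2 ratio of 2.33 ± 0.15, with 75.3 and 65.8 CPM in the vacuole libraries, against 16.4 and 11.3 CPM in total lysates. For *MSL1* (YIR009W, chromosome IX, 374525 to 374860), the U2B component of the spliceosome, the ratio was 2.28 ± 0.23, with 19.7 and 16.2 CPM in the vacuole libraries and 2.92 and 4.53 CPM in total lysates. *HOM2*, already described, was the last of the 8. In all 8 the vacuole libraries lay above the lysates, as they did for 43.3% of all mRNAs tested.

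mRNAs of amino acid biosynthesis lay mostly on the higher side. Of 87 mRNAs tested on 9 pathway lists, 37 (42.5%) were called higher and 0 lower, against 10.6% and 7.67% of all mRNAs, and 75 had a ratio above 0. DESeq2 called the same numbers, 5 of the 87 lay below 0 at an unadjusted p under 0.05, and without each library in turn 32 to 42 were called higher. Their median log2 ratio was 0.85, against 0.02 for all mRNAs, and they took 3.80% and 3.60% of the counts in the vacuole libraries and 2.29% and 1.90% in total lysates. Correction for coding length left 36 of them called higher, with a median of 0.86. The lists and the directions of their members were known from earlier results of these data, so these counts describe the lists.

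Within this block the pathway from aspartate to threonine had the highest median, 1.86, with 4 of 5 mRNAs called higher. Besides *THR1* and *HOM2*, *HOM3*, for aspartate kinase, had 205 and 202 CPM in the vacuole libraries, against 60.9 and 51.1 CPM in total lysates (log2 ratio 1.86). *HOM6*, for homoserine dehydrogenase, was the only uncalled one, with 895 and 834 CPM in the vacuole libraries and 703 and 653 CPM in total lysates (log2 ratio 0.35, adjusted p = 0.017). The pathway thus held one of the highest mRNAs of the transcriptome and one whose fractions lay close together. Histidine biosynthesis had 4 of 7 mRNAs called higher and a median of 1.35. *HIS3*, for imidazoleglycerol-phosphate dehydratase, had 152 and 151 CPM in the vacuole libraries, against 40.4 and 32.3 CPM in total lysates (log2 ratio 2.06), and *HIS1*, for the first enzyme of the pathway, 1.78. *HIS4*, for a multifunctional enzyme, had 1096 and 1040.0 CPM in the vacuole libraries and 653 and 549 CPM in total lysates, and its log2 ratio of 0.83 was not called, although it was called with the length correction, at 1.13. Aromatic amino acid biosynthesis had 7 of 13 called higher and a median of 1.08. *TRP4*, for anthranilate phosphoribosyltransferase, had 110.2 and 106 CPM in the vacuole libraries, against 33.2 and 25.9 CPM in total lysates (log2 ratio 1.86), whereas the pentafunctional *ARO1* had 812 and 775 CPM in the vacuole libraries and 585 and 538 CPM in total lysates (log2 ratio 0.50), which was not called.

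Branched-chain amino acid biosynthesis had 5 of 11 called higher and a median of 0.71. *ILV6*, the regulatory subunit of acetolactate synthase, had 1151 and 1103 CPM in the vacuole libraries, against 289 and 254 CPM in total lysates (log2 ratio 2.05). *LEU4*, the main α-isopropylmalate synthase, ran the other way, with 643 and 678 CPM in the vacuole libraries and 1196 and 1121 CPM in total lysates (log2 ratio −0.81, adjusted p = 6.8e-05), which was not called. Lysine biosynthesis had 2 of 8 called higher, with a median of 0.70, and *LYS9*, for saccharopine reductase, had a log2 ratio of 1.29, against −0.01 for *LYS4*, for homoaconitase. In arginine biosynthesis 3 of 10 were called higher, with a median of 0.61. *ARG4*, for argininosuccinate lyase, had 456 and 444 CPM in the vacuole libraries, against 140.4 and 132 CPM in total lysates (log2 ratio 1.72), whereas the acetylornithine aminotransferase gene *ARG8* had −0.14. Sulfur assimilation and the synthesis of methionine and cysteine had 5 of 16 called higher and a median of 0.49, led by *MET22*, for the phosphatase that removes a by-product of sulfate assimilation, with 125 and 123 CPM in the vacuole libraries and 29.7 and 28.4 CPM in total lysates (log2 ratio 2.09). At the other end of that list, *MET10*, for a subunit of sulfite reductase, had a log2 ratio of −0.35 that was not called. The synthesis of serine, glycine and proline had 5 of 10 called higher and a median of 0.98, led by *SER2*, for phosphoserine phosphatase, with a log2 ratio of 1.96. Without total lysate replicate 2 this last count was 3.

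Nitrogen-assimilating enzymes were split. Of 7 mRNAs for the synthesis of glutamate, glutamine, asparagine and aspartate, 2 (28.6%, against 10.6% of all mRNAs) were called higher, and the median log2 ratio was 0.84. Without total lysate replicate 1, 4 were called. *GDH1*, for the glutamate dehydrogenase that assimilates ammonia, had 3433 and 3254 CPM in the vacuole libraries, against 1545 and 1124 CPM in total lysates (log2 ratio 1.32, adjusted p = 2.3e-05). *ASN1*, for asparagine synthetase, had 1723 and 1599.8 CPM in the vacuole libraries and 824 and 633 CPM in total lysates (log2 ratio 1.19). *GLT1*, for glutamate synthase and one of the longest mRNAs here with 2136 codons, had 2105 and 2039 CPM in the vacuole libraries, against 4013 and 3417 CPM in total lysates (log2 ratio −0.84), which was not called. Of 8 mRNAs for the use of allantoin and urea, which yeast takes up as poor nitrogen sources, 4 (50%, against 10.6% of all mRNAs) were called higher, with a median of 0.78. *DAL3*, for ureidoglycolate lyase, had 201 and 194 CPM in the vacuole libraries and 59.9 and 58.1 CPM in total lysates (log2 ratio 1.74), and *DAL7*, for malate synthase, 1.44. The mRNA of the allantoate permease *DAL5* had 151 and 159 CPM in the vacuole libraries, against 158 and 147 CPM in total lysates, and its groups overlapped.

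Cytosolic ribosomal proteins followed a similar course. Of 136 mRNAs tested, 55 (40.4%, against 10.6% of all mRNAs) were called higher and 0 (against 7.67%) lower. Of these 136, 127 had a ratio above 0, and the median log2 ratio was 0.89. DESeq2 called 54 higher and 0 lower, 4 lay below 0 at an unadjusted p under 0.05, and without each library in turn 50 to 61 were called higher. For the small subunit 30 of 56 were called higher, with a median of 1.03, and for the large subunit 25 of 80, with a median of 0.75. Besides *RPS28B*, *RPS27A* had 88.0 and 83.1 CPM in the vacuole libraries and 26.03 and 23.0 CPM in total lysates (log2 ratio 1.80). Of the large subunit, *RPL21B* had 146 and 140.1 CPM in the vacuole libraries, against 39.2 and 37.3 CPM in total lysates (log2 ratio 1.90), and *RPP1B*, for a protein of the acidic stalk, 147 and 136 CPM in the vacuole libraries and 43.6 and 40.5 CPM in total lysates (log2 ratio 1.75). Other stalk proteins went the other way without being called. *RPP2B* had 255 and 244 CPM in the vacuole libraries, against 388 and 402 CPM in total lysates (log2 ratio −0.66 ± 0.10), and *RPP1A* had 204 and 216 CPM in the vacuole libraries and 304 and 277 CPM in total lysates (log2 ratio −0.46 ± 0.10). These mRNAs are short, with a median of 135 codons, and the correction for coding length left 12 of the 136 called higher and 2 lower, *RPP2B* at −1.34 and *RPP1A* at −1.14, with a median of 0.32. Many ribosomal proteins are encoded by near-identical gene pairs whose shared reads were not counted, which makes single levels uncertain.

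Other parts of the translation machinery were not shifted as a block. Of 26 initiation factor mRNAs, 3 (11.5%) were called higher and 1 (3.85%) lower, against 10.6% and 7.67% of all mRNAs. Their median was 0.10, and 1 was called higher without total lysate replicate 2. *HCR1*, for a small eIF3-associated factor, had 161 and 158 CPM in the vacuole libraries, against 76.0 and 70.3 CPM in total lysates (log2 ratio 1.12), whereas *TIF4632*, for the large scaffold eIF4G2, had 97.3 and 94.9 CPM in the vacuole libraries and 220.1 and 225 CPM in total lysates (log2 ratio −1.21). Among 12 mRNAs on the list of elongation factors, which includes *SUP35* and *SUP45*, for release factors, 2 (16.7%) were called higher and 1 (8.33%) lower. *EFB1*, for the exchange factor eEF1Bα, had 849 and 808 CPM in the vacuole libraries, against 413 and 372 CPM in total lysates (log2 ratio 1.08), and *HEF3*, for a translation elongation factor eEF3, had 96.4 and 115 CPM in the vacuole libraries and 243 and 286 CPM in total lysates (log2 ratio −1.32). None of these 4 was called with the length correction, at 0.83, −0.89, 0.58 and −0.98. Of 19 cytosolic aminoacyl-tRNA synthetases, *TYS1*, for tyrosine, was called, with 261 and 251 CPM in the vacuole libraries, against 83.7 and 71.6 CPM in total lysates (log2 ratio 1.72), and without total lysate replicate 1 there were 5 calls. mRNAs for the assembly of ribosomes did not share the direction of the ribosomal proteins. Among 41 mRNAs of pre-60S assembly, 1 (2.44%, against 10.6% of all mRNAs) was called higher and 6 (14.6%, against 7.67%) lower. Of the 41, 32 had a ratio below 0, against 2799 of all 5701 mRNAs, and the median was −0.43. *NOP2*, for an rRNA methyltransferase, had 43.7 and 42.4 CPM in the vacuole libraries and 103 and 100.05 CPM in total lysates (log2 ratio −1.24). Among 36 mRNAs of the small subunit processome and early assembly, 1 (2.78%) was called higher and 2 (5.56%) lower, both below the shares of all mRNAs. Of the 36, 31 were below 0, and the median was −0.54. With the length correction 0 of the pre-60S list were called higher and 5 lower, with a median of −0.45. On the processome list 0 were then called in either direction, with a median of −0.33.

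**Figure D3:**
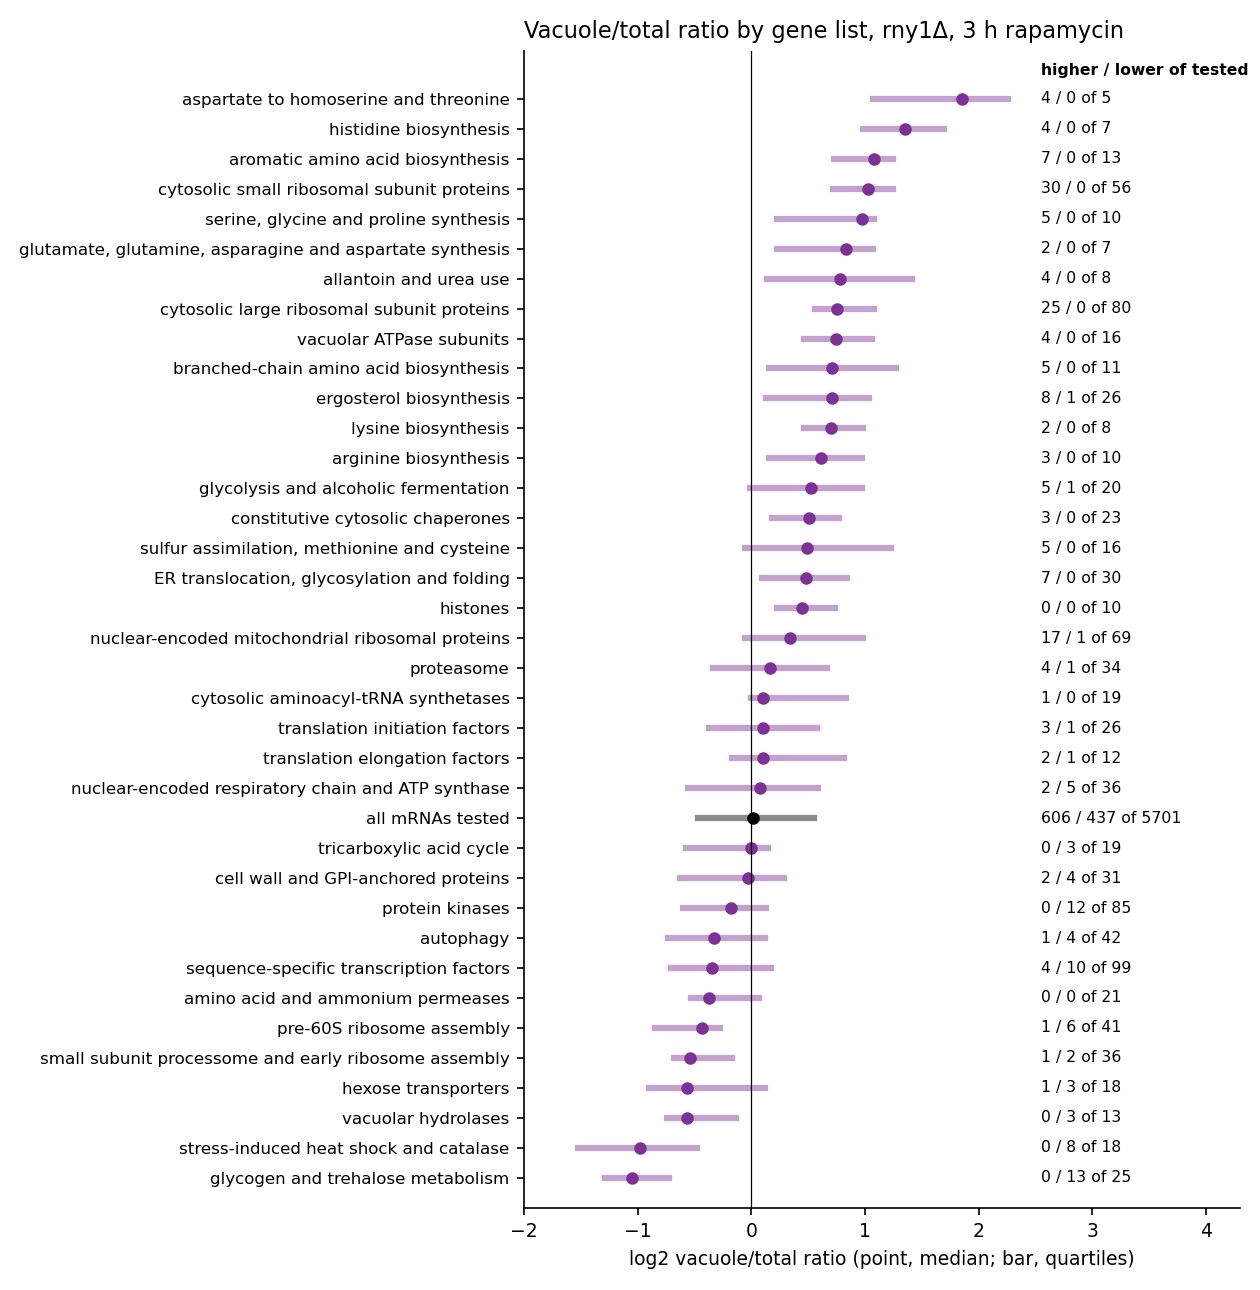
Log2 vacuole/total ratios by gene list, with a point at the median and a bar over the quartiles, beside the number of mRNAs called higher and lower of those tested. The pathway from aspartate to threonine, with a median of 1.86, stands at the top, and glycogen and trehalose metabolism, at −1.05, at the bottom. Mitochondrially encoded mRNAs are not plotted.

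Several complexes were split between small and large subunits. Of 16 mRNAs on the list of the vacuolar ATPase, the proton pump that acidifies the vacuole, 4 (25%, against 10.6% of all mRNAs) were called higher. The median log2 ratio of the list was 0.75. The list also holds *IPP1*, for a cytosolic pyrophosphatase that is not a subunit of the pump. With the length correction 1 of the 16 was called. *VMA9*, for a small membrane subunit of 64 codons in the files, had 115 and 114 CPM in the vacuole libraries, against 38.7 and 36.1 CPM in total lysates (log2 ratio 1.61). *VPH1*, for a large membrane subunit, with 831 codons, had 453 and 433 CPM in the vacuole libraries and 635 and 611 CPM in total lysates (log2 ratio −0.49), which was not called. The 4 called had a median of 106.5 codons, and the 12 others had 359.5. In the nuclear-encoded mitochondrial ribosome 17 of 69 (24.6%, against 10.6% of all mRNAs) were called higher and 1 (1.45%, against 7.67%) lower, with a median of 0.34. *MRPL39* had 48.7 and 49.4 CPM in the vacuole libraries, against 11.3 and 10.9 CPM in total lysates (log2 ratio 2.13), and *MRPL24* had 21.6 and 21.7 CPM in the vacuole libraries and 45.1 and 52.4 CPM in total lysates (log2 ratio −1.17). The 17 called higher had a median of 130 codons, the 51 uncalled 255, and the length correction left 3 called higher and 5 lower, with a median of 0.01. Of 30 mRNAs for translocation, glycosylation and folding in the ER, 7 (23.3%, against 10.6% of all mRNAs) were called higher, with a median length of 77 codons. Among them was *SEC72*, for a subunit of the translocon, with 44.1 and 41.9 CPM in the vacuole libraries, against 11.6 and 14.1 CPM in total lysates (log2 ratio 1.75). With the length correction 2 of the 30 were called.

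Of 26 mRNAs of ergosterol biosynthesis, 8 (30.8%, against 10.6% of all mRNAs) were called higher and 1 (3.85%, against 7.67%) lower. Their median log2 ratio was 0.71, and without total lysate replicate 2 the list had 5 higher. The length correction left 4 called higher and 1 lower. *ERG12*, for mevalonate kinase, had 76.5 and 74.4 CPM in the vacuole libraries and 35.4 and 30.2 CPM in total lysates (log2 ratio 1.20). *MCR1*, for a mitochondrial NADH-cytochrome b5 reductase, was the one called lower, with 472 and 538 CPM in the vacuole libraries, against 1264 and 1465 CPM in total lysates (log2 ratio −1.43). Among 23 mRNAs on the list of mostly constitutive chaperones, which includes the mitochondrial *HSP60*, 3 (13%, against 10.6% of all mRNAs) were called higher. *YDJ1*, for an Hsp40 cochaperone, had 295 and 270.4 CPM in the vacuole libraries and 129 and 107 CPM in total lysates (log2 ratio 1.26), and *HSP82*, for the inducible Hsp90, had 1348 and 1309.6 CPM in the vacuole libraries, against 1371 and 1523 CPM in total lysates (log2 ratio −0.12), which was not called. In the proteasome list 4 of 34 (11.8%, against 10.6% of all mRNAs) were called higher and 1 lower, and the length correction left 1 higher and 1 lower. The mRNA of the ATPase subunit *RPT2* had 396 and 367 CPM in the vacuole libraries and 125 and 134 CPM in total lysates (log2 ratio 1.55), whereas *RPN4*, for the transcription factor that drives proteasome genes, had 149.5 and 159 CPM in the vacuole libraries, against 359 and 387 CPM in total lysates (log2 ratio −1.27). Of the 4 MATα-specific mRNAs, 2 (50%, against 10.6% of all mRNAs) were called higher, and log2 ratios ran from −0.48 for *SAG1* to 2.00 for *MF(ALPHA)2*. *MF(ALPHA)2* had 121 and 117 CPM in the vacuole libraries and 28.4 and 31.3 CPM in total lysates. With the length correction 1 of the 4 was called, and *MF(ALPHA)1*, at 0.87, was not. The 10 histone mRNAs all had ratios above 0, with a median of 0.45. By edgeR and by DESeq2 0 were called, and 7 had an unadjusted p under 0.05.

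Central carbon metabolism was mixed. Glycolysis and fermentation took 12.65% and 11.84% of the counts in the vacuole libraries and 8.54% and 6.65% in total lysates. Of the 20 mRNAs on this list, 5 (25%, against 10.6% of all mRNAs) were called higher and 1 (5%, against 7.67%) lower. *PGK1*, for phosphoglycerate kinase, had 10428 and 9820.1 CPM in the vacuole libraries, against 4113 and 3051 CPM in total lysates (log2 ratio 1.50 ± 0.19). *ENO2*, the enolase isozyme of growth on glucose, had 8918 and 8232 CPM in the vacuole libraries and 3951 and 2965 CPM in total lysates (log2 ratio 1.31), whereas its paralog *ENO1* had 3426 and 3124 CPM in the vacuole libraries, against 4172 and 3901 CPM in total lysates (log2 ratio −0.30), which was not called. Both isozymes thus lay on opposite sides of 0, and reads shared by both were not counted. *HXK1*, a hexokinase repressed by glucose, had 1980.0 and 2261 CPM in the vacuole libraries and 5178 and 5367 CPM in total lysates (log2 ratio −1.31). In the tricarboxylic acid cycle 0 of 19 were called higher by edgeR and by DESeq2, with 2 above 0 at an unadjusted p under 0.05. In this list 3 (15.8%, against 7.67% of all mRNAs) were called lower. Among them was *CIT2*, for the peroxisomal citrate synthase, with 1567 and 1697 CPM in the vacuole libraries, against 3496 and 3951 CPM in total lysates (log2 ratio −1.19). Of 36 nuclear-encoded mRNAs of the respiratory chain and ATP synthase, 2 (5.56%, against 10.6% of all mRNAs) were called higher and 5 (13.9%, against 7.67%) lower. *NDE1*, for the external NADH dehydrogenase, had 146 and 161 CPM in the vacuole libraries and 479 and 520.4 CPM in total lysates (log2 ratio −1.70), and *CYC7*, for the cytochrome c isoform of low oxygen, 35.6 and 43.6 CPM in the vacuole libraries, against 107 and 119.9 CPM in total lysates (log2 ratio −1.51). The 2 called higher, *ATP18* and *ATP19*, encode small subunits of ATP synthase (4 were called without vacuole replicate 2), had log2 ratios of 1.10 and 1.11, and were not called with the length correction, at 0.57 and 0.53. Without total lysate replicate 1 *ATP18* was at 0.98.

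Among the nuclear-encoded lists, glycogen and trehalose and the stress-induced mRNAs had the lowest medians. Of 25 mRNAs of glycogen and trehalose metabolism, 13 (52.0%, against 7.67% of all mRNAs) were called lower and 0 (against 10.6%) higher. Their median log2 ratio was −1.05, and 23 lay below 0. DESeq2 called 15 lower and 0 higher, 2 lay above 0 at an unadjusted p under 0.05, and without each library in turn 11 to 16 were called lower. *GAC1*, a regulatory subunit that brings protein phosphatase 1 to glycogen synthase, had 186 and 216 CPM in the vacuole libraries and 636 and 711 CPM in total lysates (log2 ratio −1.74). *TPS2*, for trehalose-phosphate phosphatase, had 1256 and 1435 CPM in the vacuole libraries, against 3909 and 3762 CPM in total lysates (log2 ratio −1.51). The exception at the other end was *PGM1*, for the minor phosphoglucomutase, with 164 and 149.9 CPM in the vacuole libraries and 85.7 and 71.9 CPM in total lysates (log2 ratio 0.99), which was not called. It was called without total lysate replicate 1, at 1.12, without vacuole replicate 2, at 1.06, and with the length correction, at 1.18, when 10 of the 25 were called lower. This list includes *PIG2* and *NTH2*, which the study picked on these samples.

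Stress-induced heat shock and catalase mRNAs had 8 of 18 (44.4%, against 7.67% of all mRNAs) called lower and 0 (against 10.6%) higher by edgeR, with a median of −0.98. DESeq2 called 9 lower and 0 higher, and 2 lay above 0 at an unadjusted p under 0.05. These mRNAs took 2.13% and 2.41% of the counts in the vacuole libraries and 4.34% and 4.77% in total lysates. *HSP12*, for a membrane-stabilizing stress protein, had 1396 and 1762 CPM in the vacuole libraries, against 5865 and 7719.5 CPM in total lysates (log2 ratio −2.10 ± 0.19). *HSP12* is short, with 100 codons in the files. The length correction left 10 of the 18 called lower, with a median of −1.08. *HSP31*, for a glyoxalase, and *SOD2*, for mitochondrial superoxide dismutase, lay above 0 without being called, with log2 ratios of 0.59 and 0.39, and that of *SOD2* turned to −0.01 with the length correction.

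The 8 lowest mRNAs of all are mitochondrially encoded, so the 8 lowest nuclear-encoded mRNAs were added after their values were seen. *EGO4* (YNR034W-A, chromosome XIV, 692561 to 692857), a paralog of the gene for a subunit of the vacuolar EGO complex, had 269.7 and 372 CPM in the vacuole libraries and 1547 and 2066 CPM in total lysates (log2 ratio −2.49 ± 0.18, adjusted p = 5.2e-07). *IDP3* (YNL009W, chromosome XIV, 614821 to 616083), for the peroxisomal isocitrate dehydrogenase, had 31.8 and 43.5 CPM in the vacuole libraries, against 169 and 245 CPM in total lysates (log2 ratio −2.45). *SPG1* (YGR236C, chromosome VII, 962530 to 962817), needed for survival in stationary phase, had 157 and 239 CPM in the vacuole libraries and 876 and 1291 CPM in total lysates (log2 ratio −2.45). For each of these mRNAs replicate 2 was the higher library in both fractions. The vacuole libraries lay below the lysates, as they did for 41% of all mRNAs tested. *GRE1* (YPL223C, chromosome XVI, 128632 to 129138), for a stress-induced hydrophilin, had 235 and 341 CPM in the vacuole libraries, against 1414 and 1702 CPM in total lysates, and *RGI2* (YIL057C, chromosome IX, 247902 to 248396), induced in respiratory growth, had 37.6 and 63.6 CPM in the vacuole libraries and 213 and 323 CPM in total lysates, with log2 ratios of −2.44 and −2.40. *SPG4* (YMR107W, chromosome XIII, 483014 to 483361), another gene of stationary phase, had 274 and 401 CPM in the vacuole libraries, against 1467 and 1834 CPM in total lysates (log2 ratio −2.29). *SLZ1* (YNL196C, chromosome XIV, 270275 to 271171), for a leucine zipper protein of meiosis, had 37.5 and 51.1 CPM in the vacuole libraries and 190.1 and 234 CPM in total lysates (log2 ratio −2.25). *TMA10* (YLR327C, chromosome XII, 783127 to 783387), for a ribosome-associated protein, had 457 and 564 CPM in the vacuole libraries, against 2170.0 and 2611 CPM in total lysates (log2 ratio −2.23). All of them but *IDP3*, with 411 codons, are shorter than the median of 400 codons of all mRNAs tested.

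Regulatory mRNAs had calls mainly on the lower side. Of 85 mRNAs on the list of protein kinases, 12 (14.1%) were called lower and 0 higher by edgeR, with a median log2 ratio of −0.18. The list includes *SIP2*, for a regulatory subunit of the Snf1 kinase. DESeq2 called 13 lower and 0 higher, and 14 lay above 0 at an unadjusted p under 0.05. *KIN82*, for a kinase that activates lipid flippases, had 145 and 179 CPM in the vacuole libraries and 475 and 587 CPM in total lysates (log2 ratio −1.71). *VHS1*, for a serine/threonine kinase, had 106 and 144 CPM in the vacuole libraries, against 374 and 405 CPM in total lysates (log2 ratio −1.64), and *MRK1*, a homolog of glycogen synthase kinase 3, had 66.7 and 79.1 CPM in the vacuole libraries and 189 and 212 CPM in total lysates (log2 ratio −1.46). At the other end the MAP kinase gene *SLT2* had 200.3 and 207 CPM in the vacuole libraries, against 134 and 107 CPM in total lysates (log2 ratio 0.76), which was not called. The share of kinases called lower, 14.1%, stood against 7.67% of all mRNAs. With the length correction 10 were called lower and 1 higher, *SCH9* at 1.01, with a median of 0.05. Of 99 transcription factors, 10 (10.1%, against 7.67% of all mRNAs) were called lower, *RPN4* included, and 4 (4.04%, against 10.6%) higher. Their median was −0.34. The lowest were activators of genes for nonfermentable carbon sources. *CAT8* had 271 and 337 CPM in the vacuole libraries and 976 and 1245 CPM in total lysates (log2 ratio −1.87), *HAP4* had 261 and 293 CPM in the vacuole libraries, against 863 and 1059 CPM in total lysates (log2 ratio −1.80), and *ADR1* had 361 and 414 CPM in the vacuole libraries and 1153 and 1379.5 CPM in total lysates (log2 ratio −1.71). The highest were *NRG2*, a repressor of glucose-repressed genes, with 37.2 and 37.5 CPM in the vacuole libraries, against 12.2 and 10.9 CPM in total lysates (log2 ratio 1.69), and the GATA factors of nitrogen catabolism *DAL80*, with 54.5 and 55.2 CPM in the vacuole libraries and 20.4 and 19.3 CPM in total lysates (log2 ratio 1.47), and *GAT1*, with 105 and 95.7 CPM in the vacuole libraries, against 47.3 and 37.8 CPM in total lysates (log2 ratio 1.24). Transcription factors were thus found at both ends, and the length correction left 14 called lower and 4 higher.

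Proteins of the vacuole itself and of membranes did not follow the direction of the vacuolar ATPase. Of 13 mRNAs on the list of vacuolar hydrolases 3 (23.1%, against 7.67% of all mRNAs) were called lower, with a median of −0.57. The list also holds *PBI2*, for a proteinase B inhibitor, and *VTC4*, for a polyphosphate polymerase. Of the 3, *AMS1*, for α-mannosidase, and *PRB1*, for proteinase B, were not called without vacuole replicate 1, at −0.996 and −0.93. Without total lysate replicate 2 they were not called either, at −0.97 and −0.93. *APE3*, for aminopeptidase Y, had 1386 and 1661 CPM in the vacuole libraries and 3508 and 3685 CPM in total lysates (log2 ratio −1.24), whereas *APE1*, for the aminopeptidase carried to the vacuole by the Cvt pathway, had 1013 and 1012 CPM in the vacuole libraries, against 775 and 649 CPM in total lysates (log2 ratio 0.51), which was not called. Of 21 amino acid and ammonium permeases 0 were called in either direction by edgeR or DESeq2, between *BAP2* at −0.85 and *MEP3* at 0.80, and at an unadjusted p under 0.05 4 lay above 0 and 11 below. Hexose transporters had 3 of 18 (16.7%, against 7.67% of all mRNAs) called lower, *HXT7* at −1.15, *HXT6* at −1.12 and *HXT2* at −1.04. Without vacuole replicate 1 these were at −0.92, −0.81 and −0.87 and were no longer called. With the length correction none of the 3 was called, and without vacuole replicate 2 or total lysate replicate 1 the list had 6 and 5 called lower. *HXT6* was also not called without total lysate replicate 2, at −0.89, and reads that fit both *HXT6* and *HXT7* were not counted. *HXT14* was called higher, with 7 counts in one lysate, and was not called without total lysate replicate 2. Among 31 mRNAs of the cell wall 4 (12.9%, against 7.67% of all mRNAs) were called lower and 2 (6.45%, against 10.6%) higher. Without total lysate replicate 2, 1 was called higher. The list ran from *SPI1*, a stress-induced wall protein, with 723 and 1048 CPM in the vacuole libraries and 2293 and 2255 CPM in total lysates (log2 ratio −1.36), to *TIR1*, a mannoprotein of cold shock, with 60.2 and 61.1 CPM in the vacuole libraries, against 19.7 and 14.3 CPM in total lysates (log2 ratio 1.82). Of 42 autophagy mRNAs 4 (9.52%, against 7.67% of all mRNAs) were called lower and 1 higher, with a median of −0.32, and without total lysate replicate 1 there were 8 called lower. *ATG20*, for a sorting nexin, had 130.0 and 137 CPM in the vacuole libraries and 297 and 363 CPM in total lysates (log2 ratio −1.30), and *ATG39*, a receptor for autophagy of the nucleus, 53.1 and 55.8 CPM in the vacuole libraries, against 129 and 127 CPM in total lysates (log2 ratio −1.23). *VAC8*, for a protein of the vacuolar membrane that also acts in the Cvt pathway, was the one called higher (2 were without total lysate replicate 2 or vacuole replicate 2), with 782 and 636 CPM in the vacuole libraries and 242 and 272 CPM in total lysates (log2 ratio 1.46).

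mRNAs of the mitochondrial genome had the lowest ratios of the lists examined. All 19 tested were called lower, with log2 ratios between −4.67 and −3.88 and a median of −4.18, and they took 0.291% and 0.349% of the counts in the vacuole libraries and 3.94% and 5.85% in total lysates. *OLI1*, for the ring subunit of ATP synthase, had 226 and 299 CPM in the vacuole libraries, against 3493 and 4379 CPM in total lysates (log2 ratio −3.91), and *VAR1*, for the ribosomal protein of the mitochondrial genome, 4.43 and 5.43 CPM in the vacuole libraries and 59.8 and 136 CPM in total lysates (log2 ratio −4.29). *SCEI*, the intron-encoded endonuclease of the 21S rRNA gene, was lowest, with 22.5 and 22.4 CPM in the vacuole libraries, against 404 and 739.8 CPM in total lysates (log2 ratio −4.67). Lysate replicate 2 was the higher lysate for all 19, and without each library in turn the median lay between −4.50 and −3.80. Of the 19 genes, 13 overlap a neighbour within or beside *COX1*, *COB* or *COX2*, and their reads cannot be assigned to one with certainty. Scaling by nuclear-encoded mRNAs alone left 605 mRNAs called higher and 441 lower.

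The ratio differed with coding length. In the shortest quartile of mRNAs (16 to 232 codons in the files, a count that leaves out 10 codons of most genes) 375 of 1426 were called higher and 65 lower, with a median log2 ratio of 0.58. In the second quartile, of 232 to 400 codons, 158 were called higher and 102 lower, and in the third, of 400 to 624 codons, 62 and 142. In the longest quartile (624 to 4901 codons) 11 of 1425 were called higher and 128 lower, with a median of −0.33. The mRNAs called higher had a median of 188.5 codons, those called lower 491 and all mRNAs 400. A per-library correction by a smooth curve over coding length called 318 higher and 465 lower, of which 272 and 323 were among those called without it. The amino acid, glycogen and trehalose, and heat shock lists kept medians of 0.86, −0.92 and −1.08, and that of ribosomal proteins was 0.32 in place of 0.89. The part of coding length in the calls was not tested beyond this correction.

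**Figure D4:**
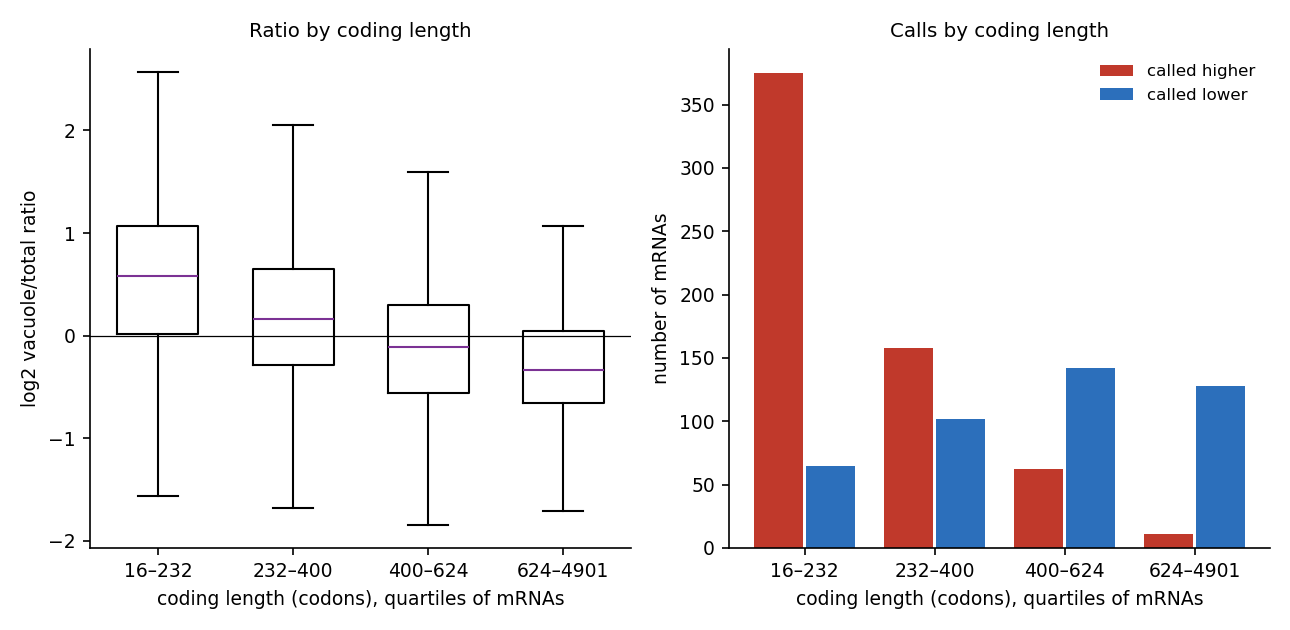
Left, log2 vacuole/total ratio in quartiles of mRNAs by coding length in codons, with the median (purple), the spread between lower and upper quartile (box) and whiskers to the last value within 1.5 box lengths. Right, the number of mRNAs called higher and lower in each quartile. Medians run from 0.58 in the shortest quartile to −0.33 in the longest, and calls on the higher side number 375 and 11 in these quartiles.

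Level in the lysate was related to the calls on the lower side. Of the quartile of mRNAs with the lowest level per kb in total lysates, 165 were called higher and 13 lower, and of the quartile with the highest level 152 and 286. The lysate level is also the denominator of the ratio, so the relation is partly built into the measure. By the level in the vacuole fraction, its numerator, 52 were called higher and 63 lower in the lowest quartile and 306 and 151 in the highest.

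The same vacuole/total ratio was compared with that of growing *rny1*Δ cells and of rapamycin-treated *rny1*Δ *atg2*Δ cells by interaction terms in a fit of all 12 vacuole and lysate libraries, which tested 5753 mRNAs. The ratio was higher after rapamycin than in growing cells for 697 mRNAs (12.1%) and lower for 459 (7.98%). It was higher in *rny1*Δ than in *rny1*Δ *atg2*Δ for 787 (13.7%) and lower for 588 (10.2%). With DESeq2 in place of edgeR the split was 389 higher and 508 lower against growing cells, and 492 and 669 against *rny1*Δ *atg2*Δ. With the correction for coding length it was 302 and 449, and 275 and 480. Growing cells have 1 library per fraction, so their side has no replicate of its own. Both comparisons use the same 4 libraries of rapamycin-treated *rny1*Δ cells and are not independent. In *rny1*Δ *atg2*Δ, 1 vacuole library was shallow, with 535462 counts. Leaving it out gave 787 and 595, and leaving out the other gave 358 and 448.

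Of the 606 mRNAs called higher in the vacuole fraction of rapamycin-treated *rny1*Δ cells, 479 also had a ratio called higher than in growing cells and 475 higher than in *rny1*Δ *atg2*Δ. Their median log2 ratio, 1.31 here, was −0.04 in both other pairs. Of the 418 nuclear-encoded mRNAs called lower, with a median of −1.27 here, 240 had a ratio called lower than in growing cells and 248 lower than in *rny1*Δ *atg2*Δ, and their medians there were −0.18 and −0.17. The calls and these differences share libraries, so the counts are a description.

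By list, amino acid biosynthesis had a median log2 ratio of 0.85 here, 0.19 in *rny1*Δ *atg2*Δ and −0.04 in growing cells. The difference was called higher for 26 and 44 of its 87 mRNAs and lower for 1 in each comparison. Over all mRNAs, 13.7% and 12.1% of the differences were called higher and 10.2% and 7.98% lower. Ribosomal proteins had medians of 0.89, −0.10 and 0.01, with 73 and 52 of 136 differences called higher and, against growing cells, 1 called lower. For glycogen and trehalose the medians were −1.05, 0.16 and −0.12, and 16 and 15 of 25 differences were called lower and, against growing cells, 1 was called higher. Within amino acid biosynthesis, the branched-chain, sulfur and glutamate lists had medians of 0.71, 0.49 and 0.84 here. In *rny1*Δ *atg2*Δ they had 0.47, 0.34 and 0.44, against −0.002 to 0.32 for the other amino acid lists. Against *rny1*Δ *atg2*Δ, 1, 3 and 0 of their differences were called higher, and 1 of the glutamate list lower. Glycolysis did not follow the pattern of the pooled lists either. Its median was 0.53 here, 0.87 in *rny1*Δ *atg2*Δ and −0.11 in growing cells. Against *rny1*Δ *atg2*Δ, 2 of its 20 differences were called higher and 6 lower. *ENO2* had a log2 ratio of 1.31 here and 1.26 in *rny1*Δ *atg2*Δ, and the difference in the fit of 12 libraries, 0.08, was not called. *PGK1* had 1.50 and 0.58. *SSA2*, for a cytosolic Hsp70, had a log2 ratio of 1.18 here, with 1773 and 1694 CPM in the vacuole libraries and 870.1 and 663 CPM in total lysates, and 1.02 in *rny1*Δ *atg2*Δ. Without total lysate replicate 2 its ratio here was 0.99. These mRNAs thus had ratios above 0 in cells without *ATG2* as well. Such ratios give makeup and not amount, and on a gel the study hardly detected mRNA in vacuole fractions of cells lacking Atg2. The study lists RNase I treatment for vacuole fractions of other experiments and not for the sequenced ones. Whether RNA from outside the vacuole was carried into these fractions was not tested. Mitochondrially encoded mRNAs had medians of −4.18 here, −1.84 in *rny1*Δ *atg2*Δ and −5.65 in growing cells, and the difference was called lower for 18 of 19 against *rny1*Δ *atg2*Δ and higher for 9 of 19 against growing cells.

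Some mRNAs were high in the vacuole fraction of growing cells already, of which *VAC8* and *SCH9* were chosen after their values were seen. *APL5*, at 0.10 here, had a log2 ratio of 3.19 in growing cells and 0.36 in *rny1*Δ *atg2*Δ. *ASG1*, at −0.74, had 1.73 and 0.46. *VAC8*, called higher here at 1.46, had 3.80 and 0.91, and *SCH9*, for an AGC kinase that acts downstream of TORC1, had 0.71 here, 3.64 and 1.55. For these 4 mRNAs the ratio after rapamycin lay below the growing ratio, with log2 differences of −3.06, −2.44, −2.31 and −2.90, each from 1 growing library per fraction.

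**Figure D5:**
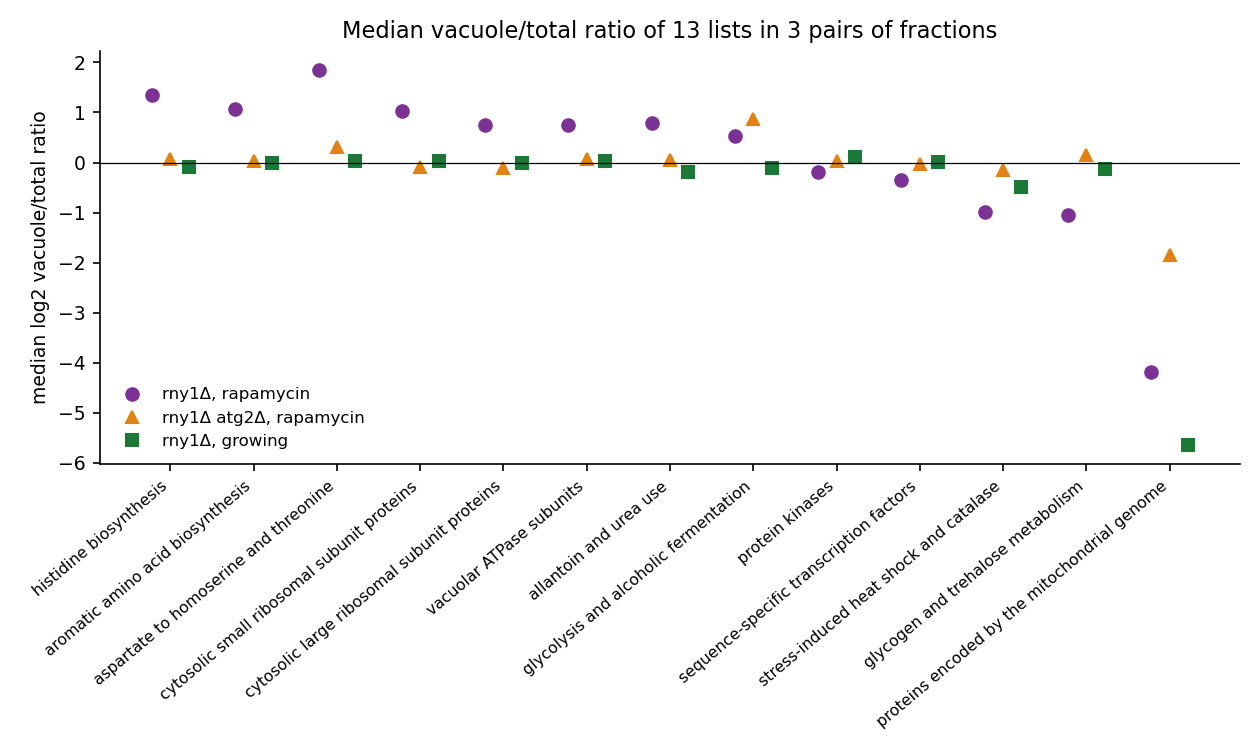
Median log2 vacuole/total ratio (y axis) of 13 gene lists in rapamycin-treated *rny1*Δ cells (circles), rapamycin-treated *rny1*Δ *atg2*Δ cells (triangles) and growing *rny1*Δ cells (squares). The histidine, aromatic, threonine and ribosomal lists lie above 0 for the circles and between −0.11 and 0.32 for the other symbols. The other amino acid lists are not plotted. Glycolysis is highest in *rny1*Δ *atg2*Δ at 0.87, and mitochondrially encoded mRNAs are lowest in growing cells at −5.65.

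In WT cells the lysate was measured at 3 h of rapamycin in 1 library and set against the mean of 2 growing libraries, without a test. The 585 mRNAs called higher in the vacuole fraction that could be read there had a median log2 change of −0.58, and the 394 nuclear-encoded mRNAs called lower had 0.80, against −0.01 for all 5432. Ribosomal protein mRNAs had a median change of −3.73, amino acid biosynthesis −0.98, glycogen and trehalose 1.96 and heat shock and catalase 3.83. Ribosome footprints per mRNA changed by a median of 0.57 on the log2 scale for mRNAs called higher and by −0.11 for nuclear-encoded mRNAs called lower, against 0.06 for all. For mRNAs called higher the median was 0.66 with growing replicate 1 alone as the baseline and 0.50 with growing replicate 2. For those called lower it was 0.13 with growing replicate 1 and −0.37 with growing replicate 2, so that its sign depended on the baseline. Among lists, footprints per mRNA changed by medians of 1.12 for ribosomal proteins and 0.30 for amino acid biosynthesis, and by −0.38 for glycogen and trehalose and −1.28 for heat shock and catalase. Footprints and mRNA were scaled separately, so each change is relative to the typical mRNA and not absolute. The study reports that rapamycin lowered global protein synthesis. The mRNA change is also the denominator, so an inverse relation to it is partly built into the measure.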

How the data were processed

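RNA-Seq libraries of vacuole fractions and total cell lysates were made by the authors from *rny1*Δ cells. Spheroplasts were homogenised, vacuoles were floated on Ficoll by ultracentrifugation, rRNA was depleted, and libraries were prepared with a kit that does not mark strand and read single-end. Per the submitters' processing notes, reads were handled with Bowtie2 2.1.0, TopHat2 2.0.9, HTSeq 0.6.1 and STAR 2.7.0a on the sacCer3 build. The files hold counts of reads per gene deposited by the authors, without normalization, and whether counting used strand was not given in the sources used here, so overlapping and antisense genes cannot be told apart. Reads with several positions were dropped, which makes near-identical paralogs uncertain. The HTSeq summary rows were left out of library sizes. Alignments outside genes were 46.3% and 46.4% of those counted in the vacuole libraries and 47.5% and 47.7% in total lysates. The WT files also hold coding lengths in codons, 10 short of the full reading frame for 94.5% of genes.

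Of 6696 gene rows, 6008 matched the R64 annotation of RefSeq and 6005 are protein-coding. mRNAs whose counts over the 4 libraries summed to at least 10 were tested with edgeR 4.0.16 in R 4.3.3, by the quasi-likelihood test after TMM scaling. Fitted ratios used edgeR's default prior count. A prior count of 2 was used in log2 CPM, for the spread between replicates, the length curve and the WT changes. CPM values in the text are scaled by TMM and are not divided by length unless given per kb. Calls needed a log2 ratio of at least 1 in size and a Benjamini-Hochberg adjusted p under 0.01 from edgeR. The fit of 4 libraries has 2 residual degrees of freedom and the fit of 12 libraries in 8 groups has 4. The common biological coefficient of variation was 0.0824. Each SE is the size of the log2 ratio divided by the square root of the F statistic of the test. Replicates of a fraction differed by 10.6 (vacuole) and 27.1 (total) times sampling noise, as chi-square per degree of freedom, and were kept as separate samples. Of the mRNAs tested, 139 had under 10 counts in some library, and 14 of these were called.

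The comparison and the gene lists were chosen with earlier results of these data known. Named mRNAs were the 8 highest and 8 lowest called with at least 10 counts in every library and a symbol, those the study examined, and for each list the 3 at either end and those called. The 8 lowest nuclear-encoded mRNAs were added after their values were seen. DESeq2 1.42.0, other scalings and filters, a correction for coding length, the replicate number as a block and leaving out each library were tried as alternatives. The scripts were tested on simulated data. Floors and intervals cover counting error only.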

Additional observations from a re-analysis of the deposited data

Results flagged for a closer look

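Differences in the vacuole/total ratio between the pairs of libraries were tested as interaction terms (edgeR, 12 libraries), and those named here passed the test. The ratio after rapamycin was higher than in growing *rny1*Δ cells for 697 mRNAs and lower for 459, and it was higher than in rapamycin-treated *rny1*Δ *atg2*Δ cells for 787 and lower for 588. Growing cells had 1 library per fraction.

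Of the 8 highest mRNAs, each had a higher ratio than in growing cells. The log2 differences were 3.15 for *ANK1*, 1.91 for *RPS28B*, 2.50 for *CAB4*, 1.25 for *THR1*, 2.69 for *GCV3*, 2.37 for *BOL3*, 2.37 for *MSL1* and 2.25 for *HOM2*. Against *rny1*Δ *atg2*Δ they were 2.80 for *ANK1*, 2.47 for *RPS28B*, 2.59 for *CAB4*, 1.70 for *THR1*, 2.10 for *GCV3*, 2.46 for *BOL3*, 2.58 for *MSL1* and 1.92 for *HOM2*. The smallest difference from growing cells was that of *THR1*.

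Of the 8 lowest nuclear-encoded mRNAs, 6 had a lower ratio than in growing cells, with log2 differences of −1.54 for *EGO4*, −1.91 for *IDP3*, −2.0 for *SPG1*, −2.11 for *GRE1*, −1.91 for *SLZ1* and −1.62 for *TMA10*. Against *rny1*Δ *atg2*Δ the differences were −1.20 for *EGO4*, −1.38 for *SPG1*, −1.11 for *RGI2*, −1.28 for *SPG4*, −1.43 for *SLZ1* and −1.08 for *TMA10*. The differences of the others did not pass.

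Of the mRNAs the study examined besides *HOM2*, *LYS1*, *HIS5* and *ARO2* had higher ratios than in growing cells, by 1.83, 1.72 and 1.98, and than in *rny1*Δ *atg2*Δ, by 1.63, 1.76 and 1.95. *PIG2* and *NTH2* had lower ones, with differences of −1.85 and −1.18 from growing cells and −1.46 and −1.12 from *rny1*Δ *atg2*Δ. *APL5* and *ASG1* had lower ratios than in growing cells, with differences of −3.06 and −2.44, and *ASG1* also than in *rny1*Δ *atg2*Δ, with −1.17. *VAC8*, which the study did not examine and which was chosen after its values were seen, had a difference of −2.31 from growing cells.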

How the results depend on the processing

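With the correction for coding length, 318 mRNAs were called higher (272 of the 606), 302 and 275 differences from growing and from *rny1*Δ *atg2*Δ cells were called higher, and the list medians were 0.32 for ribosomal proteins, −1.08 for heat shock and catalase, 0.0478 for kinases, −0.16 for transcription factors and 0.00996 for mitochondrial ribosomal proteins. *ALA1*, *PBI2* and *SOD2*, none of them called, changed sign with it, to 0.0046, −0.097 and −0.0100. With DESeq2, 389 and 492 differences were called higher. With at least 10 counts in every library, which removes mRNAs, 290 and 348 were called lower. In WT cells, footprints per mRNA of the mRNAs called higher changed by 0.35 at 2 h and 0.35 at 1 h.

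Leaving out each library in turn gave 582 to 666 called higher and 370 to 535 lower, 486 to 746 and 388 to 688 against growing cells, and 358 to 813 and 448 to 804 against *rny1*Δ *atg2*Δ. The count of 358 came without *rny1*Δ *atg2*Δ vacuole replicate 1. List medians then ran between −1.17 and −0.83 for heat shock and catalase, 0.36 and 0.72 for glycolysis, −0.23 and −0.14 for kinases, and −0.33 and −0.31 for transcription factors. Without a rapamycin *rny1*Δ vacuole library the median log2 difference of all mRNAs, 0.08 against growing and 0.05 against *rny1*Δ *atg2*Δ cells, was between −0.08 and −0.06. The cause of these shifts was not tested.

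Samples of both fractions share only a replicate number (correlation of replicate differences 0.23, from 1 value per mRNA). With the number as a replicate block, 619 and 441 mRNAs were called higher and lower, 729 and 476 differences against growing cells, and 775 and 578 against *rny1*Δ *atg2*Δ. Of 213 mRNAs named or on the examined ends of lists, 153 kept their side of the threshold under the alternatives run, 38 lost the call under at least 1, 19 gained one and 3 changed sign. At this depth, 3 counts limit mRNAs below 0.328 CPM.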
